A study of Mus musculus with 5 samples.

Results

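Domains of closely spaced replication initiation zones were examined in CGR8, a line of mouse embryonic stem cells. A domain here is a stretch of an autosome that holds 5 or more zones, with no more than 10 kb between the edge of a zone and the edge of the next. The domains were selected on zone positions alone. They numbered 585 among the 24538 groups that the joining gave on chromosomes 1 to 19, when a zone with no close neighbour is counted as a group of 1. They took in 3964 of the 35138 autosomal zones and of the 35512 zones of the whole list.

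The cells were grown in medium with serum and leukaemia inhibitory factor, without feeder cells. Short nascent DNA was isolated from 3 separate cultures and digested with lambda exonuclease, an enzyme that spares strands protected by an RNA primer. The study also had 1 control of sonicated genomic DNA and 1 control treated with RNase A before the digestion. The zone list pools the 3 nascent strand samples and holds positions only (build mm9), so it gives no value per culture, no depth and no background from the controls. All samples come from the same cell line. The spreads given below are over the 19 autosomes or over domains, which are not biological replicates, and no p-value was computed.

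DNA replication in mammals starts at many origins, of which each cell uses only some in a given cell cycle. Neighbouring origins often fire together as clusters of replicons, and mapping in a cell population adds up the different choices of many cells. A list of zones from such a population therefore shows where initiation occurs at all, and does not show which zones of a domain fire in the same cell.

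The domains held a larger share of the autosomal zones than of the length, although most zones lay outside them. They held 11.3% of the autosomal zones and 21.7% of the length that zones covered on autosomes, in 42.1 Mb, which is 1.75% of the zone span (2410 Mb, counted on every autosome from its first zone to its last). Inside domains, zones covered 71.7% of the length. Outside them, 4.60% of the zone span was covered. The rule fixes part of this contrast, because it limits the space between member zones to 10 kb.

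Most domains were small. Exactly 5 zones were found in 238 domains (40.7%), 6 zones in 129 and 7 zones in 73. The median was 6 zones, and 145 domains held 8 or more. Those 145 domains held 37.6% of all member zones. Only 14 domains had 15 or more zones, and 3 had more than 20.

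The median domain was 61.2 kb long, with quartiles at 46.8 and 83.2 kb. Lengths ran from 21.6 kb to 359.0 kb, and 86 domains (14.7%) reached 100 kb. Median lengths per autosome were 60.4 ± 7.49 kb (SD, n = 19), from 45.2 kb on chromosome 3 to 72.2 kb on chromosome 16. A least-squares line over the domains gave 13.5 kb of length for each further zone. Domains of 5 zones had a median length of 46.8 kb and domains of 11 or more a median of 160.9 kb. Length still varied widely at a given zone number, from 21.6 to 106.6 kb among the domains of 5 zones.

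**Figure D1:**
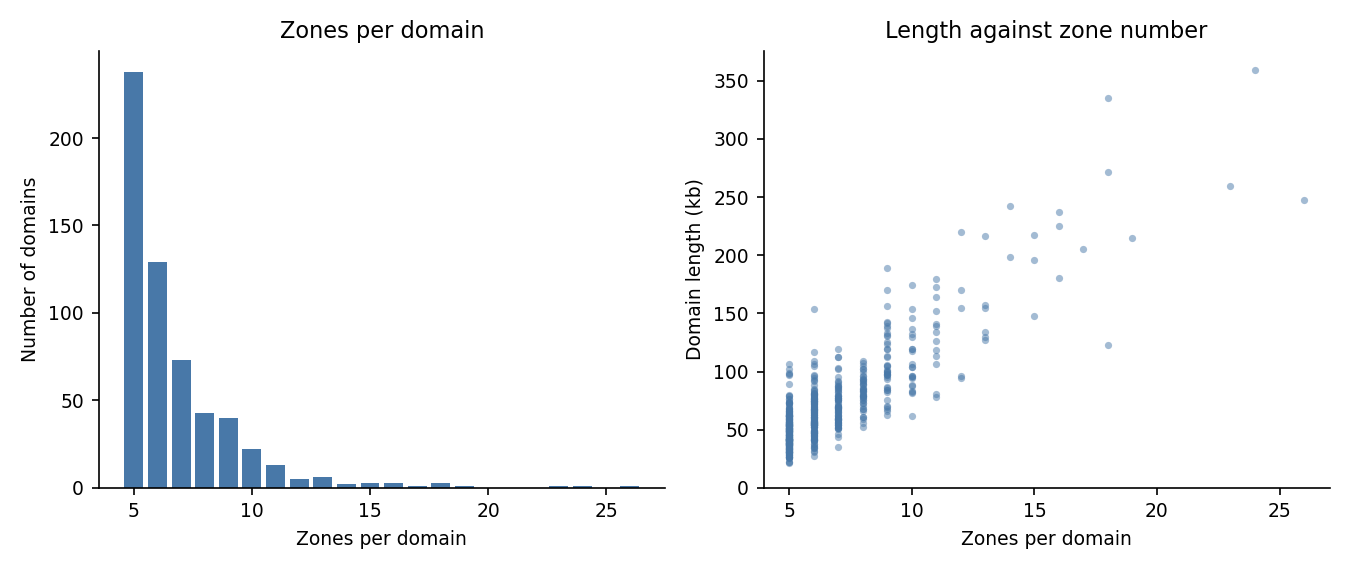
Left, number of domains (vertical axis) by zones per domain (horizontal axis), over all 585 domains. Right, domain length in kb against zones per domain, 1 point per domain; the longest, of 359.0 kb, has 24 zones and the domain with most zones, 26, is 247.4 kb long.

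Groups just outside the limit of 5 zones were less filled than domains just inside it. They were also shorter, which follows in part from their having fewer zones. Median zone width already rose below the limit, from 2000 bp in groups of 1 to 4400 bp in groups of 4. The 453 groups of 4 zones had a median length of 34.6 kb, of which a median of 64.5% was covered. Their zones had a median width of 4400 bp and their gaps a median of 3600 bp. The 238 domains of 5 zones had a median of 69.0% covered, a median zone width of 5200 bp and a median gap of 2800 bp. The limit of 10 kb was also met closely by many domains. In 171 of the 585 domains (29.2%) the widest internal gap was 9 kb or more. At the other side of the limit, 165 of the 1170 domain borders (14.1%) had the next zone within 12 kb. The median gap at a border was 20.8 kb, with quartiles at 13.9 and 36.0 kb.

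The domain with most zones lay on chromosome 17 from 27149001 to 27396400 and held 26 zones in 247.4 kb, 81.6% of it covered. From its lowest coordinate its zones were 2.4, 7.0, 6.0, 5.0, 6.0, 1.0, 2.4, 4.4, 5.2, 4.6, 10.2, 2.0, 7.4, 5.4, 11, 27.6, 9.2, 5.8, 10.4, 3.8, 17.0, 5.4, 10.6, 7.8, 19 and 5.4 kb wide. The widest zone was thus the sixteenth of the row, and the 10 zones at the low-coordinate end were all at or under 7.0 kb. The median gap between its zones was 1000 bp, and the longest was 9.2 kb. When zones under 1 kb apart were merged, this domain held 17 zones. The domain with most zones was then another, on chromosome 10 from 79311001 to 79670000, with 19.

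That domain on chromosome 10 was the second by zone number, with 24 zones, and the longest of all at 359.0 kb. Zones covered 88.1% of it, and its widest zone spanned 47.4 kb. The third by zone number lay on chromosome 8 from 73181801 to 73441400, with 23 zones in 259.6 kb and 77.9% covered. The fourth, on chromosome 4 from 140025001 to 140239600, held 19 zones in 214.6 kb and was less filled, with 66.8% covered and a median gap of 3.7 kb. There were 3 domains that tied for the fifth place with 18 zones each, and the longest of them was taken. It lay on chromosome 10 from 80564001 to 80899600, with 335.6 kb, 91.8% of it covered. It was the second longest domain, and its median zone was 13.1 kb wide. The third longest, on chromosome 17 from 56381001 to 56652600, also held 18 zones, in 271.6 kb, and had 73.7% covered. The remaining places among the 5 longest were taken by the domains with 23 and 26 zones.

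Between these extremes, the domain of 5 zones with a length nearest to the median of its class lay on chromosome 4 from 116760801 to 116807400. It was 46.6 kb long. Its zones measured 2.8, 11.8, 3.8, 4.0 and 11.2 kb, and the gaps between them 9.4, 1.2, 1.6 and 0.8 kb. A wide and a narrow zone could thus stand next to each other even in a small domain.

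**Figure D2:**
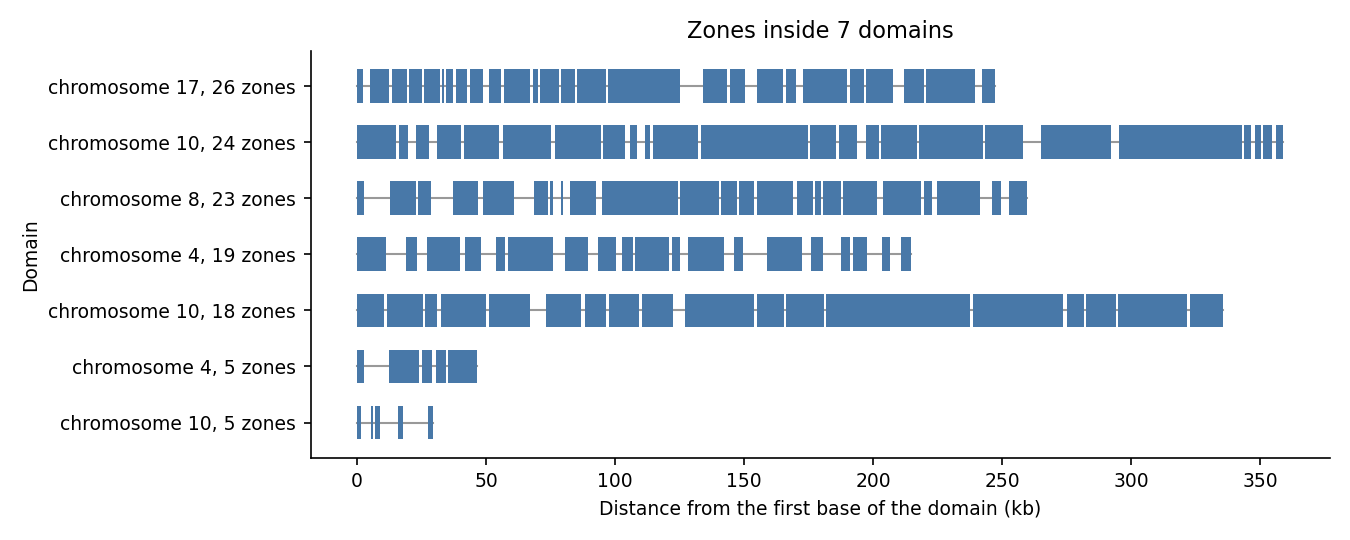
Maps of 7 domains, drawn to scale as distance from the first base of the domain in kb; blocks are zones and the thin line is the space between them. From the top are the 5 domains with most zones (26 to 18; of the 3 domains tied at 18 the longest is drawn), the typical domain of 5 zones (46.6 kb) and the domain with the lowest covered share (8.0 of 29.4 kb).

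The covered share differed among domains. Its median was 69.6%, with quartiles at 61.9 and 78.2% and a range from 27.2 to 95.5%. At least 90% was covered in 19 domains. The most filled was on chromosome 17 from 34157801 to 34234000, where 5 zones of 13.8, 11.2, 27.0, 15.8 and 5.0 kb were separated by gaps of 0.8 to 1.0 kb. It was followed by a domain of 5 zones on chromosome 7 from 108598401 to 108664400, with 94.8% covered. The third, on chromosome 19 from 7128001 to 7282000, had 93.2% covered by 6 zones. It held zones of 32.4, 29.0 and 54.8 kb in a row.

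The sparsest domain, named after its value was seen, was on chromosome 10 from 8597801 to 8627200. Its 5 zones were 1.4, 0.8, 2.0, 1.8 and 2.0 kb wide, in 29.4 kb. The shortest domain, also named after its value was seen, was on chromosome 12 from 74130401 to 74152000 and held 5 zones of 1.2 to 4.4 kb in 21.6 kb. Both stood apart from other domains, at 49.1 and 14.03 Mb from the nearest. Another domain chosen after its values were seen lay on chromosome 7 from 20296001 to 20418600. It packed 18 zones of 1.0 to 9.4 kb into 122.6 kb, less than either of the other domains of 18 zones. The next domain of higher coordinate began 4.74 Mb away, and the nearest domain, at lower coordinates, was 171.6 kb away.

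Neighbouring zones inside domains were close, and many were at the shortest distance the list contains. Over the 3379 gaps inside domains the median was 2600 bp and the quartiles were 1200 and 5400 bp. The shortest distance in the list, 800 bp, made up 473 of these gaps (14%), and 43.1% were under 2 kb. In joined groups of 2 to 4 zones the median gap was 4200 bp, 8.06% of gaps were 800 bp and 27.7% were under 2 kb. Joined groups of 2 to 4 zones held 7221 gaps, beside the 3379 in domains. Of all the 800 bp gaps on autosomes, domains held 44.8%. Such gaps are 4 steps of the 200 bp grid on which all zones lie, so how many zones a domain counts depends on where the calling ended a zone: with zones under 1 kb apart merged, 468 domains were left.

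Gaps were shorter in the larger domains, which is a description only, because the rule itself joined zones by these gaps. Their median was 2800 bp in domains of 5 zones and in those of 6 to 7, 2400 bp in those of 8 to 10, and 1800 bp in those of 11 or more. The outermost gaps of a domain had a median of 2800 bp and the inner ones of 2400 bp. Measured from midpoint to midpoint, neighbours lay a median of 10.4 kb apart, with quartiles at 7.4 and 13.9 kb. Spacing was not even within a domain. The coefficient of variation of midpoint spacing had a median of 0.37 over domains, with quartiles at 0.27 and 0.47.

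Member zones were wider than the other zones of the list, but this order depended on how distance was measured. Their median width was 5600 bp, with quartiles at 3200 and 10000 bp. Zones in joined groups of 2 to 4 had a median of 3200 bp and zones with no close neighbour a median of 2000 bp. Per autosome, member zones had a median width of 5432 ± 910 bp and zones with no close neighbour 2011 ± 194 bp (SD, n = 19), and members were wider on all 19. Part of this follows from the rule: at a given spacing of midpoints, wider zones leave shorter gaps between their edges.

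Zones around the domains were also wide. In the 346 windows of 1 Mb that held a member zone, the other zones had a median width of 3600 bp, and those with no close neighbour 3000 bp. In all other windows, zones with no close neighbour had a median of 1800 bp. These windows differed in density as well, with a median of 36 zones in windows with a member and 9 in the other windows that held a zone. Within the same window the median member was wider than the median of the other zones in 276 of 346 windows and narrower in 55. When domains were instead built from midpoints no more than 10 kb apart, only 93 domains were found. The order then turned: members had a median width of 3800 bp, and the other zones of the same windows 4400 bp. That comparison was added after the first result was seen. By construction, joining by midpoints leaves out neighbouring wide zones, so the turn cannot show which order would hold apart from the rule.

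Width rose with the number of zones joined up to 5, changed little up to 8 and was higher in groups of 9 and 10. The median was 2800 bp in groups of 2, 3600 bp in groups of 3, 4400 bp in groups of 4 and 5200 bp in groups of 5. It was 5400 bp in groups of 6, of 7 and of 8, 6600 bp in groups of 9 and 6200 bp in groups of 10. In the 40 domains of 11 or more zones it was 7000 bp (quartiles 3800 and 12800 bp). A width of 10 kb or more was reached by 21.0% of the zones in domains of 5 and by 34.2% in domains of 11 or more.

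Zones of 10 kb or more were then counted among the members. Of the 2605 autosomal zones of 10 kb or more, 38.1% lay in domains, beside 11.3% of all autosomal zones and 2.22% of the 2701 zones under 1 kb. This order depended on the rule too. With midpoints no more than 10 kb apart, domains held 1.11% of the zones of 10 kb or more. They held 1.49% of all zones and 0.33% of those under 1 kb. This setting was added after the first values were seen. By construction it leaves out neighbouring wide zones, so the share of zones of 10 kb or more was partly set by the rule. In the domains joined by edges, such a wide zone was present in 432 of the 585 domains (73.8%), and 140 domains held 3 or more. The most in a single domain was 15. The widest zone of any domain spanned 61.2 kb and was the first of 14 zones on chromosome 17 from 27427001 to 27669600, the domain next to the one with 26 zones.

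Zones of the same domain were far from uniform. The widest zone of a domain was a median of 7.17 times as wide as its narrowest, with a range from 1.29 to 60. The last value came from chromosome 19, from 3951601 to 4029200, where zones of 36.0 and 0.6 kb were neighbours. A single zone gave a median of 33.0% of the covered length of its domain, and in 49 domains 50% or more. Of the spread of log2 width over all member zones, 24.3% of the sum of squares lay between domains and the rest within them. A part of such a share arises even when widths are placed without regard to domains, because most domains hold few zones. That part was not computed.

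Widths by place inside the domain showed a small difference between the ends and the middle, and equal medians at the low-coordinate and the high-coordinate end. First zones and last zones both had a median width of 5200 bp. The first zone was the wider in 290 domains, the last in 279, and they were equal in 16. The 2794 interior zones were wider at the median, 5800 bp, and their quartiles were 3200 and 10200 bp. The 1170 terminal zones had quartiles at 3000 and 9400 bp around their median of 5200 bp. Second zones from either end had a median of 5600 bp, and zones farther from both ends 6200 bp. The last group comes more often from large domains, whose zones were wider in general.

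In domains of a fixed size the profile was shallow against the spread at each place. The median widths of the 238 domains of 5 zones were 4800, 4900, 5500, 5700 and 4800 bp from the first to the fifth place, and the quartiles at the first place alone were 3000 and 9750 bp. Domains of 6 zones ran from 5200 to 5600 bp over their places. Domains of 7 zones had 4600 bp at both ends and 5400 to 6200 bp between.

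Compared within each domain, the mean width of interior zones was a median of 1.12 times that of the terminal zones, with quartiles at 0.73 and 1.88. Interior zones had the higher mean in 324 domains, terminal zones in 256, and the means were equal in 5. The interior mean is taken over more zones than the terminal mean, and widths were skewed towards wide zones. A ratio of 1 and an even split are therefore not the values to expect if place had no effect. The values without an effect of place were not computed. The result depended on the average used for interior zones. The median of 2 terminal widths is also their mean, so the version with medians sets an interior median against a terminal mean. It is not a like-for-like change of average. With that version the median ratio was 0.97, with interior zones wider in 277 domains and terminal zones in 300. With domains built from midpoints it was 0.91. By autosome the median ratio was 1.10 ± 0.16 (SD, n = 19) and lay above 1 on 13 of 19. The interior median was above the terminal median on 12 autosomes, below it on 5 and equal on 2. A difference of this size was smaller than the spread over autosomes.

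The place of the extreme zones in the domain was counted as well. Among the 567 domains with a single widest zone, that zone was first or last in 29.6%, where such places made up a mean of 32.3% of the places. Among the 545 with a single narrowest zone, it was first or last in 36.1%, against 32.4% of the places. Beyond the border, the first zone outside had a median width of 4200 bp when it belonged to no other domain, the second 4200 bp and the third 3800 bp. These widths lay below those of terminal zones and above the 2000 bp of zones with no close neighbour.

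**Figure D3:**
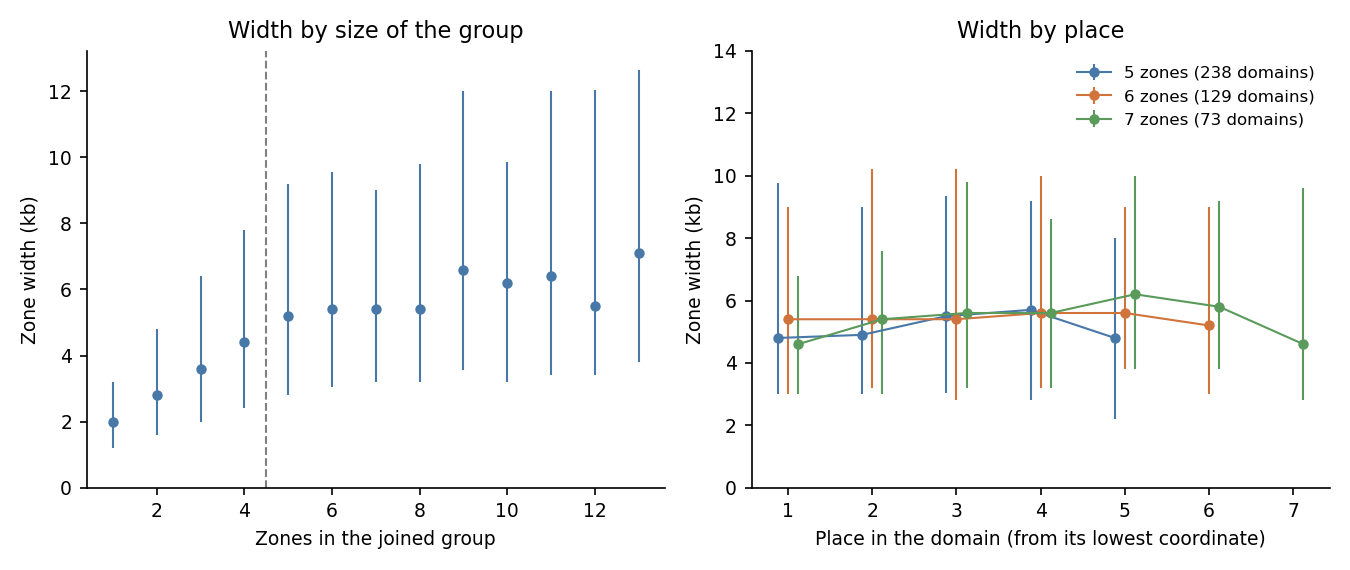
Left, zone width in kb by the number of zones in the joined group, for groups of up to 13; the dashed line marks the limit of 5 zones. Right, zone width in kb by place in domains of 5, 6 and 7 zones, where the bars overlap at all places. In both panels points are medians and bars run from the lower to the upper quartile over zones.

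Domains were themselves unevenly placed. The 566 distances from a domain to the next on its chromosome had a median of 378.3 kb, with quartiles at 115.1 kb and 1.62 Mb. They were within 20 kb in 47 pairs, from 20 to 50 kb in 30 and from 50 to 100 kb in 53. Between 100 kb and 1 Mb lay 260 pairs (45.9%). Above 5 Mb lay 87 (15.4%) and above 10 Mb 48 (8.48%). A median of 13 zones stood between a domain and the next. In 66 pairs no zone stood between, and these pairs were 79.0 kb apart at most.

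The shortest distance between domains, 10.4 kb, occurred in 3 pairs and is 400 bp above the joining limit. The lower domain of each pair lay on chromosome 4 (147411601 to 147490400), on chromosome 5 (112697401 to 112743000) and on chromosome 7 (25265801 to 25333600). The longest distance was 75.7 Mb on chromosome 3, from the domain of 7 zones that ends at 8709400 to one of 5 zones that starts at 84386001, with 657 zones between. The second was 63.0 Mb on chromosome 4, from 43470800 to 106470401, with 662 zones between. The third was 56.3 Mb on chromosome 16, from 35605000 to 91868001, with 403 zones between. Long distances between domains were thus not empty of zones.

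**Figure D4:**
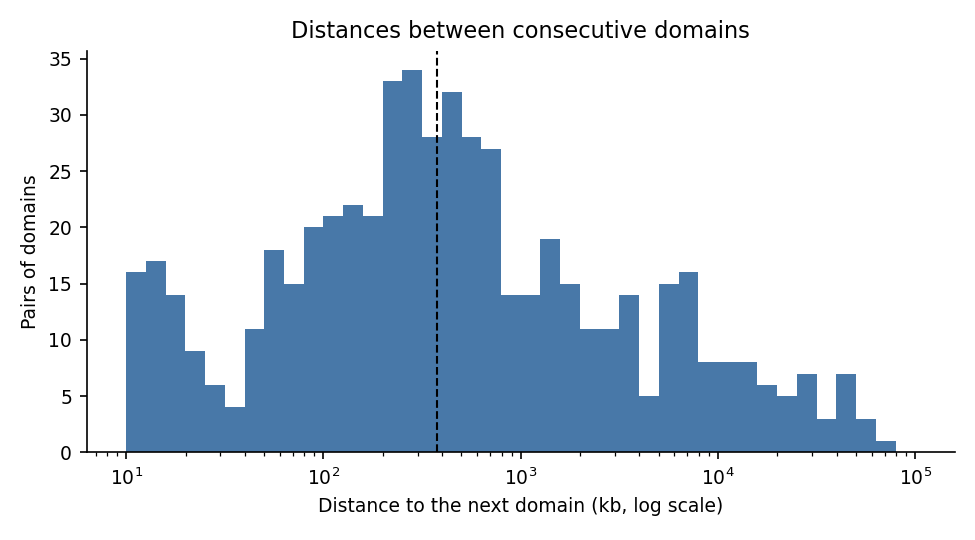
Number of pairs of consecutive domains (vertical axis) by the distance between their edges in kb (horizontal axis, log scale), over 566 pairs on 19 autosomes. The dashed line is the median of 378.3 kb; the left edge is set by the joining limit of 10 kb.

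Domains no more than 100 kb apart formed 80 chains that together held 210 of the 585 domains. The other 375 domains were in no chain. Most chains, 52, were pairs of domains, and 28 had 3 or more. The distance of 100 kb was chosen with the values known.

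The largest chain was on chromosome 10 from 79057401 to 81010200. It held 9 domains with 108 zones in 1.95 Mb, and 86.2% of that span lay inside domains. In order, the domains had 16, 24, 12, 12, 5, 9, 6, 18 and 6 zones and were 237.6, 359.0, 219.8, 169.8, 65.6, 139.0, 59.2, 335.6 and 97.0 kb long. The distances between them were 16.0, 12.6, 72.8, 12.8, 65.2, 59.4, 17.8 and 13.6 kb. Both domains of over 300 kb in the list thus belong to this chain. The covered share of its domains ranged from 65.2 to 91.8%.

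The chain with the second highest number of domains was on chromosome 2 from 30191001 to 30785600, with 6 domains and 40 zones in 594.6 kb. Another on chromosome 17, from 27053401 to 27828400, held 5 domains and 56 zones in 775.0 kb, among them the domain of 26 zones. On chromosome 8, 5 domains with 54 zones lay between 72668401 and 73441400. On chromosome 4, 5 domains with 39 zones lay between 140456401 and 141103400. At the opposite extreme, 39 domains (6.67%) had no other domain within 5 Mb.

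Autosomes differed more in domains than in zones. They carried 0.24 ± 0.16 domains per Mb of zone span (SD, n = 19), from 0.0684 on chromosome 13, which had 8 domains, to 0.581 on chromosome 11, which had 69. The highest value was 8.49 times the lowest, whereas zone density differed 2.19-fold. These ranges are not directly comparable. A domain needs 5 or more close zones, so the number of domains need not rise in proportion to zone density. The lowest value also rests on only 8 domains. The 5 autosomes with most domains, chromosomes 11, 4, 2, 7 and 5, held 53.0% of the domains, 37.4% of the autosomal zones and 31.1% of the zone span. The share of an autosome's zones that lay in domains was 10.4% ± 5.69 (SD, n = 19). Chromosome 13 had the lowest share, 3.28%, and chromosome 17 the highest, 19.01%.

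Domain density followed zone density over the autosomes, with a Spearman's rho of 0.90 (n = 19), given as a description because both are counted from the same zones. Autosomes of like zone density could still differ in domains. Chromosomes 4 and 9 both carried 16.7 zones per Mb, but chromosome 4 had 66 domains and 0.433 per Mb, and chromosome 9 had 24 and 0.199. Chromosome 10 had 24 domains, of which 9 formed the chain described above.

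The ends of the chromosomes held very different numbers of domains. The last 10 Mb of the zone span, the end away from the centromere in mouse, held 98 domains in all, and the first 10 Mb held 29. The last 10 Mb thus held 16.8% of the domains, beside 11.6% of the autosomal zones and 7.88% of the zone span. The share of zones in the first 10 Mb was not computed, so the contrast between the ends is one of domains only. Per autosome this was 0.52 ± 0.68 and 0.15 ± 0.33 domains per Mb (SD, n = 19), against 0.22 ± 0.15 between the ends. The spread was large because few autosomes made up most of these numbers: the last 10 Mb held 23 domains on chromosome 4, 20 on chromosome 11 and 13 on chromosome 8, and none on 6 autosomes. The first 10 Mb held no domain on 11 autosomes, and 14 of the 29 found there were on chromosome 19, which has 20 domains in all. The last 10 Mb held more than the first on 11 autosomes, fewer on 4 and as many on 4.

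**Figure D5:**
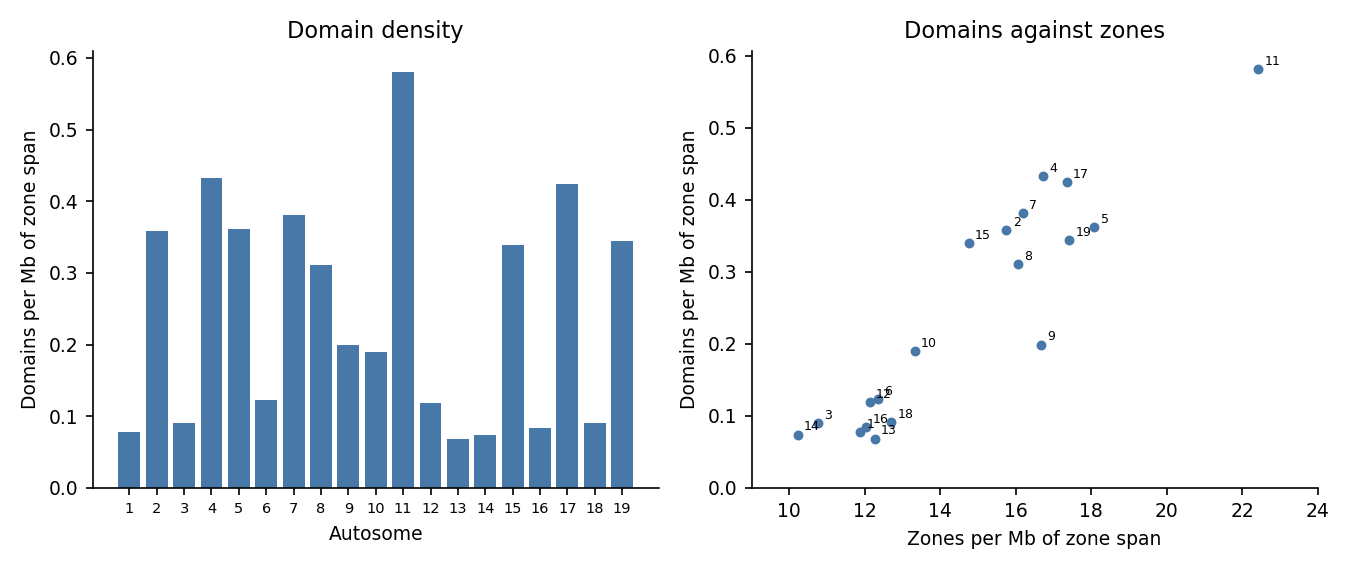
Left, domains per Mb of zone span (vertical axis) for each autosome, lowest on chromosome 13 (0.0684) and highest on chromosome 11 (0.581). Right, domains per Mb against zones per Mb of zone span, 1 point per autosome with its number beside it; chromosomes 4 and 9 share a zone density of 16.7 per Mb and differ in domains.

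The rule was also applied to the sex chromosomes, which lie outside it. None of the 369 zones on chromosome X belonged to a group of 5, and the largest group there had 4 zones and occurred once. Zones were few on chromosome X: the autosome with fewest, chromosome 19, held 1012. The 5 zones of chromosome Y had no neighbour within 10 kb.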

How the data were processed

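The authors' deposited file lists zone positions in bp, without a header or any score. Per the labels' series text it pools the 3 nascent strand samples. Build mm9, CASAVA 1.8 and SICER are named in the submitters' processing notes; settings and the use of the controls are not given in the sources used here. Such deposited positions are neither counts nor signal, so depth is unknown and no interval could be computed.

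Positions were converted to counting from 1. Zones of chromosomes 1 to 19 were joined at edge-to-edge distances of 10000 bp or less (next start minus previous end minus 1), and groups of 5 or more were kept. Zones and domains were put into 1 Mb windows by midpoint. Members, lists and named regions were chosen with earlier results of these data known. The rule for named regions took the 5 domains with most zones, the 5 longest, the 3 most covered, the 3 longest and 3 shortest distances, the widest zone, a typical domain of 5 zones and the extreme autosomes. Other regions, chains included, were named after their values were seen. Joining was tested on a simulated list with known domains. The gene and sequence tables are of another build, so genes and sequences were not analysed here. Python 3.11.15, numpy 2.4.6, pandas 2.3.3, scipy 1.17.1 and matplotlib 3.10.9 were used.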

Additional observations from a re-analysis of the deposited data

How the results depend on the processing

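Domains are defined by their settings, so their number follows them. Of 94 alternatives, 63 moved a value by less than 1 SD over autosomes, or a number of zones or domains by at most 1.5 times. The SD over autosomes is wide for some of these values. The median distance to the next domain of 378.3 kb became 646.4 kb at a joining distance of 5 kb and 240.0 kb with 4 or more zones. The 0.245 domains per Mb became 0.107 at 5 kb and 0.144 with 6 or more zones. The 11.3% of autosomal zones in domains became 16.4% with 4 or more zones and 7.89% with 6 or more. The 63 include leaving out chromosome 7 or 11, leaving out zones under 1 kb and merging zones under 1 kb apart. At a joining distance of 5 kb, 257 domains held 4.39% of zones, with a median of 5 zones, 84.2% of the length covered, a median gap of 1400 bp and a median zone width of 6800 bp. At 20 kb, 1093 domains held 25.6% of zones, with a median of 7 zones and 81.6 kb, 53.1% covered, a median gap of 5000 bp and 0.455 domains per Mb. With 4 or more zones there were 1038 domains, with a median of 5 zones and 47.8 kb and 0.432 per Mb. With 6 or more there were 347, with a median of 7 zones and 77.2 kb. With distance measured between midpoints, 93 domains held 1.49% of zones, with a median of 5 zones and 34.4 kb, a median gap of 1600 bp, a median zone width of 3800 bp, 3264 kb to the next domain and 0.0374 per Mb. Under that setting the ratio of member to other median width in the same windows went from 1.56 to 0.86, and the ratio of interior to terminal width to 0.91. With the interior median in place of the interior mean, the latter ratio was 0.97. That setting leaves the terminal average unchanged, because each domain has only 2 terminal zones. By construction the midpoint setting leaves out neighbouring wide zones; otherwise the cause of these 3 turns was not tested. Merging before counting the largest domain, and midpoints for the comparison within windows, were chosen after seeing the data. Replicates could not be left out, because the samples were pooled before deposit, and no paired analysis was possible because of that.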
